A study of Mus musculus with 6 samples.

Results

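The genes described here build and serve the primary cilium. They were chosen by name, as genes with a single annotated symbol that starts with Ift, Bbs, Tctn, Nphp or B9d and a digit, together with a list of other known subunits and partners of the same complexes, and 44 of the 18193 genes measured met that rule. Of these, 43 encode proteins of intraflagellar transport (IFT), the BBSome and its chaperonins, the transition zone or the traffic of lipid-anchored and membrane cargo, and the remaining one, B9d1os, is a transcript from the strand opposite B9d1. Arl6, Arl13b and Rpgrip1l were not analysed here. A gene was represented by the probe set with the highest mean over all 6 arrays, so measured levels chose the probe set, and those levels are given as a description. The difference between the groups was not itself a criterion. That mean includes the CCK-EGFP arrays, however, so a probe set high only in CCK-EGFP cells can be chosen over a flat one. Counts with the dimmest probe set of each gene are given at the end.

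Expression was measured on Affymetrix mouse arrays in 3 samples of fluorescent and 3 of non-fluorescent cells, sorted from enzymatically dissociated intestine by enhanced green fluorescent protein (EGFP). All 6 samples came from adult Swiss Webster mice that carry the CCK-EGFP transgene, so the non-EGFP cells carry it too. EGFP in these mice reports the gene of cholecystokinin (Cck), a hormone released by enteroendocrine I cells after a meal, and the comparison asks how such cells differ from their neighbours. Nothing in the labels tells whether replicates are different animals, so a p-value here covers only how these samples scatter, part of which may be technical.

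Primary cilia are single, non-beating antennae that grow from a centriole in resting cells and gather receptors for signals from outside. IFT trains carry building blocks to the tip with kinesin (mainly IFT-B) and bring material back with dynein-2 (mainly IFT-A). The BBSome is a coat that moves membrane proteins out of the cilium, and the transition zone is the gate at its base, built from the MKS and NPHP modules. Endocrine cells of other organs such as pancreatic islets are known to carry primary cilia, whereas most absorptive cells of the intestine bear microvilli.

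Values are log2 intensities from the robust multi-array average (RMA), where 1 unit is a doubling. CCK-EGFP arrays had medians of 5.66 to 5.72, and the other arrays had medians of 5.37 to 5.55. A level of 4.60, the 95th percentile of the means of 71 olfactory and vomeronasal receptor genes, was taken as background. Where the mean of a group lay below it, the fold is given against that level as a lower bound. The sort was checked on markers. Cck averaged 13.16 against 8.63, and 11 of 11 enteroendocrine markers were higher, with a summed level of 16.17 to 16.37 on the CCK-EGFP arrays and 12.62 to 12.77 on the others. Among controls for RNA quality, the difference of the control probe sets from the 3′ and 5′ ends of pyruvate carboxylase was 2.36 to 3.07 on CCK-EGFP arrays and 4.26 to 4.38 on non-EGFP arrays. The same measure overlapped between the groups for 3 further control transcripts (b-actin, Gapdh, transferrin receptor). The part of RNA quality in the results was not tested.

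Most of these ciliary genes were higher in CCK-EGFP cells. Of the 44, 26 (59.1%) were higher and 3 (6.82%) lower at an adjusted p under 0.05, and 15 did not pass. Over all genes measured, 14.0% were called higher and 10.2% lower, and among the 12975 genes with a mean above background the shares were 18.7% and 12.3%. The median log2 difference of the members was 1.76, or 1.65 with means below background raised to it, beside -0.17 for all genes. Called members came from every complex except the NPHP module, where Nphp4 was the only gene under the name rule. The 3 lower genes, Ift20, Ift22 and Ift43, belong to the IFT trains. In 30 members the 3 CCK-EGFP arrays all lay above the 3 non-EGFP arrays, a pattern found in 21.8% of all genes, and in 4 members all lay below, against 28.1% of all genes. In sorted pools, fewer ciliated cells and less RNA per ciliated cell cannot be told apart.

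When every array was centred on its own median, the median of all genes fell from -0.17 to -0.42, and the calls over all genes went from 2540 higher and 1851 lower to 2101 higher (11.5%) and 3605 lower (19.8%). Of the members, 24 were then higher and 3 lower, and their median was 1.51. The replicate number used as a block, since same-numbered samples deviated together, gave 23 members higher and 2 lower. Over all genes the block gave 2340 higher and 1534 lower. Of the 29 called members, 18 kept their call when any 1 array was left out, and all 18 were higher genes. Of the 3 lower calls, 0 were left without CCK-EGFP replicate 1, and 1 was left without CCK-EGFP replicate 2, CCK-EGFP replicate 3, non-EGFP replicate 1 or non-EGFP replicate 2.

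**Figure D1:**
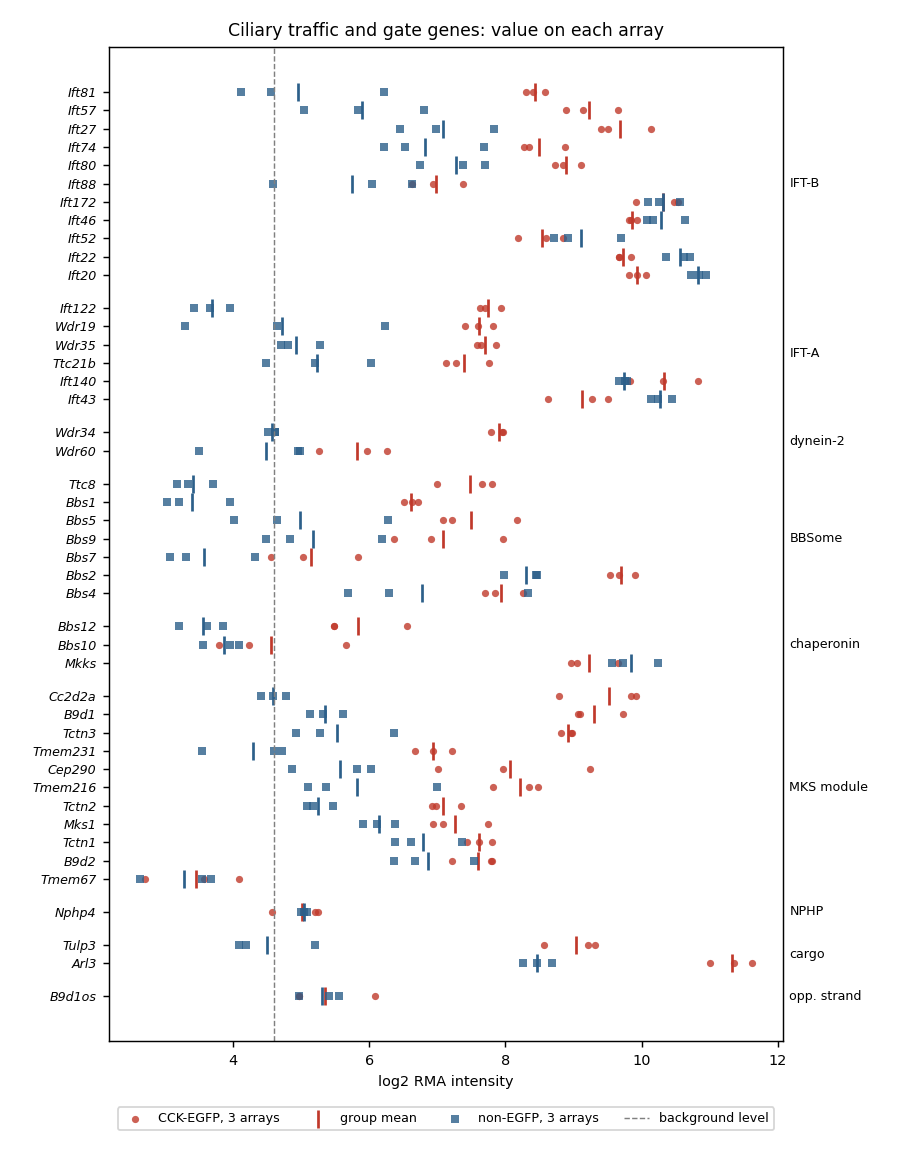
Log2 RMA intensity (horizontal axis) of each of the 44 genes on the 3 CCK-EGFP arrays (red circles) and the 3 non-EGFP arrays (blue squares), grouped by complex, with a tick for each group mean and a dashed line at the background level of 4.60. The red and blue points of genes such as Ift122, Cc2d2a and Tulp3 are well separated, while Ift20, Ift22 and Ift43 sit in the reverse order.

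**Figure D2:**
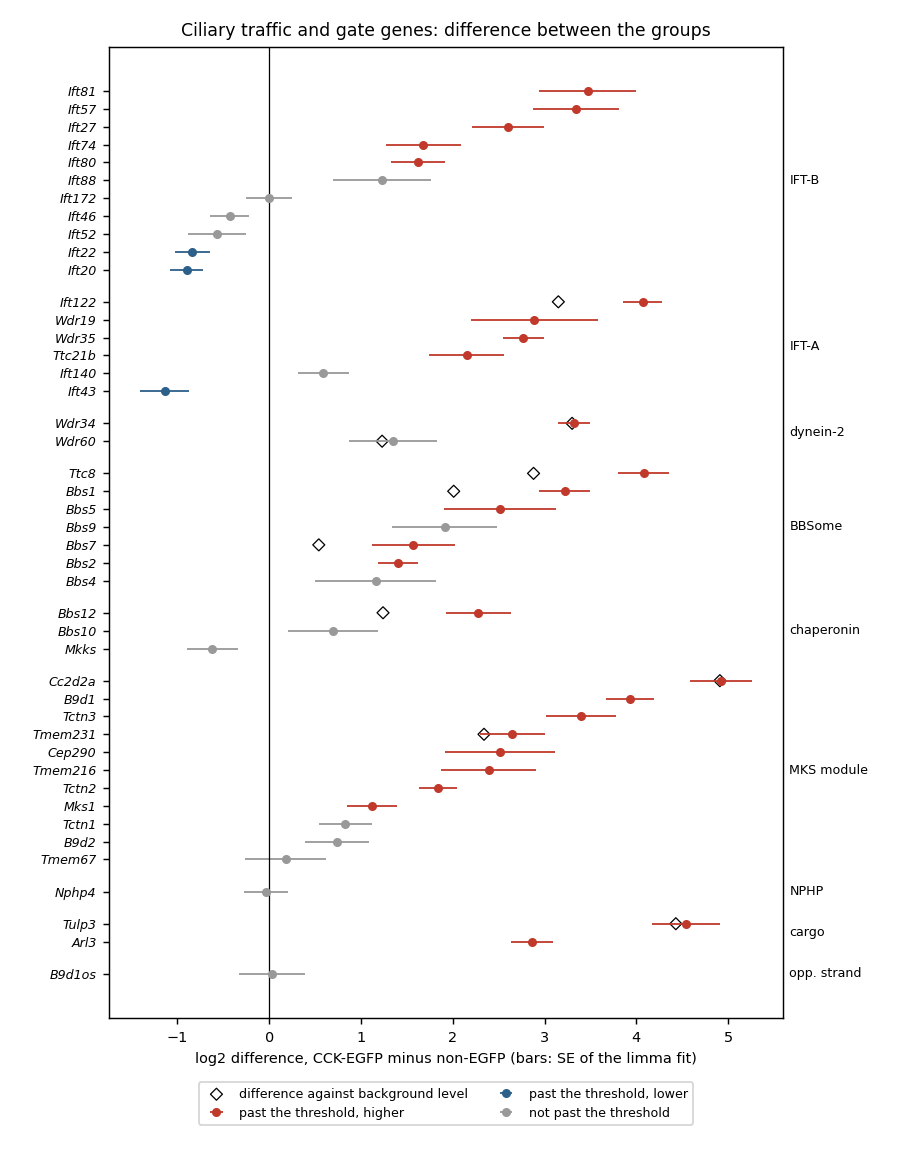
Log2 difference, CCK-EGFP minus non-EGFP, of each gene with the standard error of the limma fit, coloured by call. Open diamonds give the difference against the background level for genes with only the non-EGFP mean below it. The points run from -1.14 for Ift43 to 4.92 for Cc2d2a, with 26 called higher and 3 lower.

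Ciliary genes often carry an X-box, the motif read by RFX transcription factors, near their start, so the promoter windows of the members were read. The word searched was GTTGCC and GGCAAC with any 2 bases between them, which reads the same on both strands, with at most 2 mismatches in its 12 fixed bases, in RefSeq windows (GRCm38.p6) of 250 bases before and 50 after each annotated start. The word and this limit were chosen after the expression values were seen. Of the 44 members, 40 had a window and 3 of those had several. A match was found for 14 of 40 genes (35.0%), against 883 of 27025 genes in the whole table (3.27%), 590 of the 14452 genes of the table that were measured on the arrays (4.08%) and 10 of 46 other ciliary genes (21.7%). At most 1 mismatch left 5 of 40 members (12.5%) against 0.796% of all genes, and at most 3 gave 21 of 40 (52.5%) against 15.8%. Windows near a start share base composition, and a match is a word in the sequence, not a shown binding site. A match was found for 8 of 23 members called higher (34.8%), 1 of 3 called lower and 5 of 14 that did not pass (35.7%). B9d1, called higher, and B9d1os, not past the threshold, share the same site, and these counts include it for both genes.

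The sites are printed with flanking bases, 5′ to 3′ on the strand of the gene, with the matching word in capitals. The first 8 belong to genes called higher.
Bbs1, chr19:4906605-4906634, minus strand: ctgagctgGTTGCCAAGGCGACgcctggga
Bbs7, chr3:36613489-36613518, minus strand: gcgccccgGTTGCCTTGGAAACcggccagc
Mks1, chr11:87853183-87853212, plus strand: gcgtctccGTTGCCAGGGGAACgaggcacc
B9d1, chr11:61505130-61505159, plus strand: taccgtctGTTTCCAAGACAACcgagagcc
Ift57, chr16:49699199-49699228, plus strand: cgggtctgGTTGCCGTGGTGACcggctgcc
Tctn2, chr5:124598679-124598708, plus strand: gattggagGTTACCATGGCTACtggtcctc
Tmem231, chr8:111933781-111933810, minus strand: cgccgtcgGTTGCCGTGGAGACtcggcgct
Wdr34, chr2:30048854-30048883, minus strand: gcgggaccGTCGCCATGGCAATgtgcgcgt
Ift22, called lower, and Tctn1, which did not pass but holds the only match without a mismatch, are shown beside them.
Ift22, chr5:136908079-136908108, plus strand: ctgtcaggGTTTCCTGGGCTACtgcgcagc
Tctn1, chr5:122264411-122264440, minus strand: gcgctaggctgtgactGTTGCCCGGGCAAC

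The words of Bbs1, Bbs7 and Mks1 have 1 mismatch and those of the other genes called higher have 2. Ift22 and Tctn2 hold a second match in their windows, at base -33 and base 13, and the one with the fewest mismatches, or the first of equals, is shown. Counting the annotated start as 0, the words shown for all 14 genes began between base -121 in Bbs7 and base 36 in Tctn1. B9d1 and its opposite-strand partner B9d1os start on facing strands of chromosome 11, and the windows of both hold the same 14 bases. B9d1 was called higher and B9d1os did not pass.

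**Figure D3:**
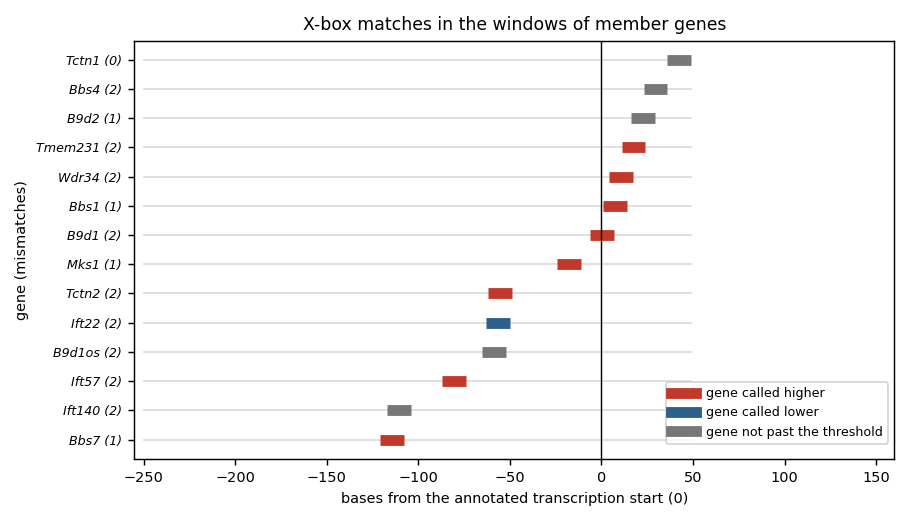
Position of the X-box word, 1 per gene, in the windows of the 14 genes with a match, in bases from the annotated start (0), coloured by the call of the gene. Grey lines show the 300 bases read, and the number in brackets is the count of mismatches. The words spread from base -121 in Bbs7 to base 36 in Tctn1.

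RFX and other ciliogenic factors gave mixed calls. Of 8 measured, 3 were higher and 1 lower. Rfx3, which drives ciliary genes in several tissues and in islet cells, read 10.81, 10.24 and 10.33 in CCK-EGFP cells and 7.14, 7.30 and 7.84 in non-EGFP cells (log2 difference 3.03, SE 0.27, limma adjusted p = 0.000968), although its second probe set differed by -0.04. Rfx7 was higher by 1.17 and Rfx5, better known for MHC class II genes, by 1.06, while Rfx1 was lower by 1.27. Leaving out CCK-EGFP replicate 1 or 2 ended the Rfx7 call (adjusted p up to 0.0593), as did taking the mean of its probe sets. The Rfx5 call ended when non-EGFP replicate 1 or a CCK-EGFP array was left out (up to 0.111), and the Rfx1 call when replicate 1 or 2 of either group was (up to 0.0993). With the replicate block Rfx5 (adjusted p = 0.0623) and Rfx1 (0.0614) did not pass. Rfx5 did not pass with centred arrays either (adjusted p = 0.0895). Foxj1, the master factor of motile cilia, was below background in both groups, at 3.89 ± 0.09 (SD, n = 3) and 4.28 ± 0.31.

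IFT-B, the train of outward transport, was split. Of its 11 subunits under the name rule, 5 were higher and 2 lower, with a median difference of 1.23. For 7 IFT particle genes outside the rule the median was 0.29. Ift81, which with Ift74 binds tubulin as cargo, read 8.41, 8.30 and 8.58 in CCK-EGFP cells and 4.12, 6.21 and 4.55 in non-EGFP cells, a difference of 3.47 (SE 0.53, adjusted p = 0.00668). Ift57, a peripheral subunit, read 9.65, 9.14 and 8.89 against 5.04, 5.83 and 6.81, a difference of 3.34 (SE 0.47, adjusted p = 0.00498). Ift27, a small GTPase that links the train to the BBSome, read 10.13, 9.41 and 9.50 against 6.45, 7.83 and 6.98, a difference of 2.60 (SE 0.39, adjusted p = 0.00661). In these genes the groups did not overlap, and the non-EGFP arrays spread more widely than the CCK-EGFP arrays. Ift74 was higher by 1.68 and the peripheral subunit Ift80 by 1.62.

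The other IFT-B members were lower or did not pass. Ift20, the subunit that also sits on the Golgi and sorts cargo for the cilium, read 9.82, 9.93 and 10.06 in CCK-EGFP cells and 10.84, 10.72 and 10.94 in non-EGFP cells (log2 difference -0.90, SE 0.18, adjusted p = 0.016). Ift22, a Rab-like subunit, read 9.85, 9.67 and 9.67 against 10.71, 10.62 and 10.36 (log2 difference -0.84, SE 0.19, adjusted p = 0.0228). These falls of less than 1 unit were small beside the rises, but the groups did not overlap. Ift172, the largest subunit, averaged 10.31 ± 0.34 (SD, n = 3) and 10.31 ± 0.24 (adjusted p = 0.996), and Ift46 read 9.93, 9.81 and 9.84 against 10.63, 10.16 and 10.08 (-0.43, adjusted p = 0.171). Ift52 differed by -0.57 (adjusted p = 0.227). Ift88, whose loss is the classic way to remove cilia from mouse cells, read 6.94, 7.38 and 6.63 against 4.59, 6.04 and 6.63 (1.23, adjusted p = 0.133), and its groups met at 6.63. The Ift20 call ended when CCK-EGFP replicate 1 or 2 was dropped (adjusted p up to 0.0685). Calls also ended for Ift22 without any array but non-EGFP replicate 3 (up to 0.0915) and for Ift74 without any array but non-EGFP replicate 1 (up to 0.0892). With the replicate block Ift74 did not pass (adjusted p = 0.0557).

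In IFT-A, the train of return transport and of entry for membrane receptors, 4 of 6 genes were higher and 1 was lower, with a median of 2.46. Ift122, a core subunit, was among the clearest of all members, at 7.70, 7.93 and 7.62 in CCK-EGFP cells and 3.66, 3.96 and 3.43 in non-EGFP cells. It was at least 8.90-fold higher against background (a log2 difference of 4.07 as fitted, SE 0.21, adjusted p = 0.00016). Wdr35 (also called IFT121) read 7.86, 7.64 and 7.58 against 5.27, 4.80 and 4.70, a difference of 2.77 (SE 0.22, adjusted p = 0.000656). Wdr19 (IFT144) read 7.41, 7.81 and 7.60 against 4.64, 3.29 and 6.23, a difference of 2.89 (SE 0.69, adjusted p = 0.0285). The wide error of Wdr19 came from the non-EGFP arrays, which spanned almost 3 units. Ttc21b (IFT139), a peripheral subunit, was higher by 2.15 (SE 0.41, adjusted p = 0.0142).

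The other IFT-A genes did not follow them. Ift43, the smallest subunit, read 8.62, 9.50 and 9.27 against 10.44, 10.24 and 10.13 and was lower by 1.14 (SE 0.27, adjusted p = 0.0277). Ift140, a core partner of Ift122, read 10.31, 9.83 and 10.83 against 9.79, 9.66 and 9.75 (0.59, adjusted p = 0.159). So the genes of a single particle ran from a clear rise to a fall. The Ift43 call ended when replicate 1 of either group, CCK-EGFP replicate 3 or non-EGFP replicate 2 was dropped (adjusted p up to 0.0719) and with the replicate block (0.0555). Wdr19 lost it when non-EGFP replicate 1 or a CCK-EGFP array was left out (up to 0.0968), and Ttc21b without CCK-EGFP replicate 2 (0.0593). The second probe set of Ttc21b differed by 0.03, and with the mean of its probe sets Ttc21b did not pass.

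The measured intermediate chains of dynein-2, the motor of return transport, were Wdr34 and Wdr60. Wdr34 read 7.96, 7.95 and 7.79 in CCK-EGFP cells and 4.51, 4.61 and 4.61 in non-EGFP cells, at least 9.84-fold higher (log2 difference as fitted 3.32, SE 0.17, adjusted p = 0.000153). The SE of Wdr34 was the smallest among the 29 called members. Wdr60 read 5.26, 6.26 and 5.96 against 4.95, 3.50 and 4.98, without overlap (at least 2.34-fold against background, adjusted p = 0.0836).

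All 7 BBSome genes among the members had a positive difference, and 5 were called higher, with a median of 1.91. Ttc8 (also called BBS8) read 7.80, 7.65 and 7.0 in CCK-EGFP cells and 3.34, 3.18 and 3.70, below background, in non-EGFP cells. It was at least 7.38-fold higher (log2 difference as fitted 4.08, SE 0.28, adjusted p = 0.000404). Bbs1, the subunit that meets cargo and the GTPase Arl6, read 6.71, 6.51 and 6.62 against 3.95, 3.20 and 3.03, a rise of at least 4.04-fold (3.22 as fitted, SE 0.28, adjusted p = 0.000835). In both genes every non-EGFP value lay below background. Bbs5 read 7.22, 8.17 and 7.08 against 4.65, 4.02 and 6.28 (2.51, adjusted p = 0.0303), Bbs2 was higher by 1.40 (SE 0.22, adjusted p = 0.0075) and Bbs7, at least 1.45-fold higher, by a fitted 1.57 (adjusted p = 0.0473).

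Calls of 4 BBSome genes changed with single arrays. Bbs4 read 7.84, 8.25 and 7.70 against 5.69, 8.33 and 6.29 (1.16, adjusted p = 0.225), where non-EGFP replicate 2 alone reached the CCK-EGFP values. Without that array Bbs4 passed (adjusted p = 0.0158). It also passed with the mean of its probe sets and with its probe set of the lowest mean. Bbs9 read 7.97, 6.91 and 6.36 against 6.19, 4.48 and 4.84 (1.91, adjusted p = 0.0553) and passed with the replicate block (0.0153) and without non-EGFP replicate 1 (0.0313). Bbs9 also passed when only genes with a mean above background were fitted, with trend and robust settings, and with the mean of all probe sets of each gene. Bbs5 and Bbs7 lost their calls without any array but non-EGFP replicate 3 (adjusted p up to 0.104 and 0.135) and with the block (0.061 and 0.0693). Bbs7 did not pass with centred arrays, a second quantile normalization or the mean of its probe sets either.

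Of the chaperonin-like genes that help fold and assemble the BBSome, Bbs12 was higher. It read 5.48, 6.55 and 5.48 in CCK-EGFP cells and 3.61, 3.20 and 3.85 in non-EGFP cells, at least 2.36-fold higher (log2 difference as fitted 2.28, SE 0.35, adjusted p = 0.00706). Its partners Mkks (BBS6), at 9.05, 8.96 and 9.65 against 10.24, 9.72 and 9.56 (-0.62, adjusted p = 0.149), and Bbs10, at 3.79, 5.66 and 4.23 against 4.08, 3.95 and 3.56 (0.70, adjusted p = 0.306), did not pass. Bbs10 had group means below background in both groups.

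Among members of the MKS module, the membrane-bound part of the gate, 8 of 11 were called higher, with a median of 2.39. Cc2d2a, which anchors the module at the base of the cilium, showed the largest difference of all 44 genes. It read 9.91, 9.85 and 8.78 in CCK-EGFP cells and 4.41, 4.59 and 4.77 in non-EGFP cells, at least 30.1-fold higher (log2 difference as fitted 4.92, SE 0.34, adjusted p = 0.000418). B9d1, a B9-domain partner of Mks1, read 9.72, 9.09 and 9.07 against 5.13, 5.62 and 5.32, a 15.3-fold rise (log2 difference 3.93, SE 0.26, adjusted p = 0.000349). Tctn3, a tectonic, read 8.82, 8.96 and 8.98 against 5.27, 6.36 and 4.93, a 10.6-fold rise (3.40, SE 0.38, adjusted p = 0.00211). The CCK-EGFP values of these genes stood at least 2 units above every non-EGFP value.

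Further members of the gate followed. The membrane protein Tmem231 was at least 5.06-fold higher (adjusted p = 0.0043), Cep290, the large linker between microtubules and membrane, rose by 2.51, Tmem216 by 2.39, Tctn2 by 1.84 (adjusted p = 0.00246) and Mks1 by 1.12. B9d2, the other B9 partner, read 7.80, 7.79 and 7.21 against 6.37, 7.54 and 6.67 (0.74, adjusted p = 0.161). Tctn1 read 7.80, 7.43 and 7.61 against 6.38, 7.36 and 6.61 (0.83, adjusted p = 0.0846) and passed without non-EGFP replicate 2 (0.0304). So among the tectonics Tctn2 and Tctn3 were called and Tctn1 was not, though a difference between them was not tested. Tmem67, the receptor-like member, was below background in both groups, at 3.46 ± 0.70 (SD, n = 3) and 3.28 ± 0.57. The calls of Tmem216 and Cep290 ended when replicate 1 or 2 of either group was dropped (adjusted p up to 0.0764 and 0.0875). Mks1 lost it without any array but non-EGFP replicate 3 (up to 0.086) and with the replicate block (0.0614), and it did not pass with centred arrays, a second quantile normalization or trend and robust settings either.

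Nphp4, of the NPHP module, read 5.24, 5.21 and 4.57 against 5.08, 5.04 and 4.99, just above background (-0.03, adjusted p = 0.937). B9d1os, the transcript opposite B9d1, read 4.97, 6.09 and 4.97 against 5.55, 5.41 and 4.97 (0.03, adjusted p = 0.951), beside the 3.93 of B9d1.

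Both members grouped under cargo traffic were higher. Of 8 genes of ciliary membrane targeting and receptors outside the name rule, 1 was higher. Tulp3, which works with IFT-A to bring G protein coupled receptors into the cilium, read 9.31, 9.21 and 8.57 in CCK-EGFP cells and 5.21, 4.08 and 4.19 in non-EGFP cells, at least 21.6-fold higher (log2 difference as fitted 4.54, SE 0.37, adjusted p = 0.000723). Arl3, the GTPase that releases lipid-anchored proteins inside the cilium, read 11.62, 11.35 and 11.01 against 8.46, 8.68 and 8.26 (2.86, SE 0.23, adjusted p = 0.000709). In both genes the lowest CCK-EGFP value lay more than 2 units above the highest non-EGFP value.

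Calls were also counted by the level in non-EGFP cells. The 8 members with a non-EGFP mean above 9, a limit set after the values were seen, were Ift20, Ift22, Ift46, Ift52, Ift172, Ift43, Ift140 and Mkks. Of them 3 were called lower and the others did not pass, with a median of -0.59. Of 24 members between background and 9, 17 were higher (median 2.03), and of 12 below background, 9 were higher. Their median was 2.93 as fitted and 2.18 with means raised to background, near that of the middle range. Over all genes the share called higher was 7.88%, 20.8% and 11.6% in these 3 ranges, and the share called lower was 20.0%, 7.58% and 3.28%. The level and the difference share the non-EGFP values.

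**Figure D4:**
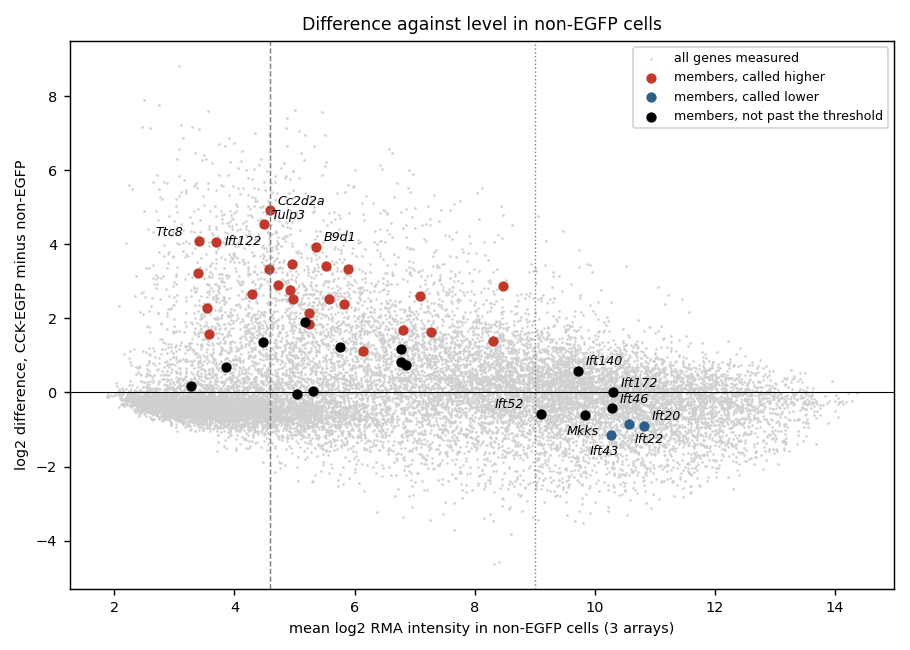
Log2 difference, CCK-EGFP minus non-EGFP, against the mean log2 RMA intensity in non-EGFP cells, for all 18193 genes (grey) and the 44 ciliary genes (coloured by call). The dashed line marks the background level of 4.60 and the dotted line a level of 9. The 8 members right of 9 lie between -1.14 and 0.59, and Cc2d2a, Tulp3, Ttc8, Ift122 and B9d1 stand highest.

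Several probe sets were present for 16 of the 44 genes. Each probe set was also tested alone, an alternative chosen after seeing the data, and 31 of the 66 probe sets of these genes were called higher and 3 lower, against 8.84% and 7.29% of all probe sets that were not controls. Besides the probe set used, the genes called higher had 7 others with a mean above background, and 5 of them were higher too, in Ift27 (1.94 and 1.82), Ift81 (1.69), Ift122 (2.31) and Tmem216 (2.11). The exceptions were a probe set of Tctn3 (1.48, adjusted p = 0.251) and one of Tulp3 (0.14, adjusted p = 0.713) that barely exceeded background. Another 9 had a mean below background and differences of -0.55 to 0.76, and limma called none of them at an adjusted p under 0.05. The Bbs7 call did not pass among probe sets (adjusted p = 0.0591).

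**Figure D5:**
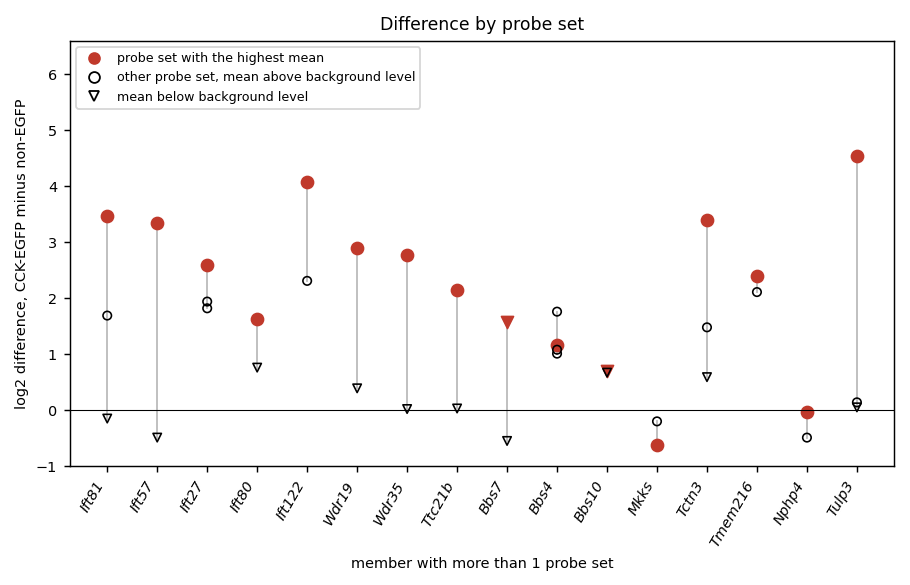
Log2 difference, CCK-EGFP minus non-EGFP, of each probe set of the 16 genes that have more than 1. Filled red marks are the probe sets with the highest mean, open circles others with a mean above background, and triangles those below it. Probe sets of Ift27, Tmem216 and Bbs4 lie close together, while those of Tulp3 span 0.05 to 4.54.

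Ciliary genes outside the name rule were read from a list of 51 measured genes. It held 18 higher (35.3%) and 2 lower (3.92%), with a median of 0.76. Over all genes the shares were 14.0% and 10.2%, and the median was -0.17. Of the 7 IFT particle genes 3 were higher, including Ttc26 (IFT56, at least 3.50-fold) and Ttc30b (1.33), and Traf3ip1 (IFT54) did not pass (0.29, adjusted p = 0.465). Motor genes were higher in 3 of 7 cases, led by the dynein-2 light intermediate chain Dync2li1 (2.58, adjusted p = 0.00776) and the kinesin-2 accessory subunit Kifap3 (1.93, adjusted p = 0.00473), while Tctex1d2 stood at 8.86 and 9.23 (adjusted p = 0.308). Transition zone and inversin compartment genes were higher in 6 of 12 cases. Ahi1, the Joubert syndrome gene whose product sits in the gate, read 9.66, 9.70 and 9.23 against 5.67, 4.37 and 6.39 (4.05, SE 0.50, adjusted p = 0.0032), and the second probe set of Ahi1 differed by -0.03. Tmem107, which recruits MKS proteins, was higher by 3.43 (adjusted p = 0.0212), and Rpgrip1 differed by 1.00 (adjusted p = 0.0586).

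In the basal body and appendage group 4 of 12 were higher, among them Sdccag8 (2.24) and the kinase Ttbk2 (1.77), which starts cilium growth, and Pcm1 did not pass (0.51, adjusted p = 0.186). Of 5 BBSome partners, Ccdc28b was higher (2.64, adjusted p = 0.00118) and Rab8a, a GTPase of membrane delivery, lower (-1.0, adjusted p = 0.0128), with Bbip1, the smallest BBSome subunit, at 12.40 and 11.93 (adjusted p = 0.136). Among 8 genes of ciliary membrane targeting and receptors Pkd1 was higher (1.16, adjusted p = 0.00859), and Inpp5e was not called (0.54, adjusted p = 0.0989). The other lower gene of the list was Cluap1 (IFT38), at -0.78 (adjusted p = 0.0247), named after its values were seen. Calls ended without single arrays for Ttc30b (without any array but non-EGFP replicate 3, adjusted p up to 0.125), Cluap1 (the same arrays, up to 0.0923), Tmem107 (any CCK-EGFP array, up to 0.0769) and Rab8a (CCK-EGFP replicate 2, 0.0582). Without CCK-EGFP replicate 1 or 2 the list held 10 higher genes each, and 12 without CCK-EGFP replicate 3. Over all genes, 1468, 1365 and 2154 were higher without CCK-EGFP replicate 1, 2 and 3. With the replicate block Cluap1 did not pass (0.0555). With the mean of their probe sets Rab8a, Sdccag8 and Ttbk2 did not pass, and the probe sets of Rab8a differed by -1.0 to 0.03.

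Markers of other cells were read beside these genes. Tuft markers moved with the group, with 4 of 7 higher and a summed level of 11.79 to 13.10 on CCK-EGFP arrays and 10.0 to 10.53 on the others, although the tuft factor Pou2f3 was below background in both. Of the neuron and glia list 3 of 6 were higher (Ret, Uchl1 and Gfap, summed level 10.51 to 11.56 against 6.96 to 7.53), with Gfap only 0.09 above background on the log2 scale. The others of that list, Elavl4 (-0.68), S100b (-0.61) and Sox10 (-0.92), lay on the other side with an unadjusted p under 0.05 and did not pass after adjustment. Their CCK-EGFP means lay below background, and the non-EGFP means of Elavl4 (4.71) and S100b (4.69) barely exceeded it. Of 14 genes of motile cilia, 4 were higher and 1, Dnah5, lower (summed level 11.16 to 11.67 against 9.28 to 9.80). Dnaic1, 1 of the 4, averaged 4.60 in CCK-EGFP cells, at the background level, and 3.27 in non-EGFP cells. Against background, the log2 difference was at least 5.84 for Tekt2 and at least 3.86 for Dnah9, and Foxj1, Dnah5, Spag6 and Hydin were below background in both groups. The part of these cell types in the result was not tested. Fibroblast and smooth muscle genes, from cells that often carry primary cilia, had 6 of 10 below background in both groups and a summed level of 7.89 to 8.07 against 7.93 to 8.14, with 1 lower (Des). In that list Col1a2 (log2 difference 1.60, at least 0.90 against background, limma adjusted p = 0.0961) and Acta2 (-1.10, 0.0553) lay on opposite sides and did not pass.

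Enterocyte markers were lower in 3 of 9 cases (summed level 15.86 to 16.38 against 16.66 to 16.73), goblet markers higher in 1 and lower in 2 of 7, stem and crypt-base markers higher in 1 of 5, and myeloid markers lower in 1 of 7. No Paneth, cell cycle, T and NK, B and plasma cell or endothelial marker was called by limma, at an adjusted or an unadjusted p under 0.05. Cell cycle genes, which mark cells that have resorbed their cilium, had a summed level of 8.95 to 10.65 on CCK-EGFP arrays, which overlapped the 9.36 to 11.44 of non-EGFP arrays. CCK-EGFP replicate 3 held the lowest CCK-EGFP value of 22 of the 44 members, and it also had the lowest enteroendocrine (16.17) and tuft (11.79) sums and the highest enterocyte sum (16.38) of its group. Without CCK-EGFP replicate 3 the members held 21 higher and 1 lower, and all genes 2154 higher and 1384 lower.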

How the data were processed

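Total RNA of sorted cells was amplified (Nugen WT-Ovation Pico) and labelled with biotin, per the labels' protocols. The authors deposited 1 table of 45101 probe sets as log2 values from RMA, per the submitters' processing notes. Its version is not given in the sources used here. RMA gives no detection call. Quantile normalization in RMA can reduce a broad shift between groups.

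Symbols came from the platform's annotation table (34945 with 1 symbol, 932 with several, 9160 unlisted, 64 controls). The test was the two-sided moderated test of limma 3.58.1 (R 4.3.3), fitted by lmFit and eBayes to 18193 genes, with Benjamini-Hochberg adjustment over all of them and a threshold of 0.05. The fit was tested on simulated data. Every member past the threshold is named. Values on each array are given per complex for up to 3 of these by size and up to 2 others by mean level, and also for further members where a result turns on them. For each group of other ciliary genes up to 2 past the threshold and 1 not past it are named. Members, lists and markers were chosen with earlier results of these data known. Tables and figures used Python 3.11.15, numpy 2.4.6, pandas 2.3.3 and matplotlib 3.10.9.

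The labels number samples 1 to 3 in each group without saying what a number marks. Deviations from group means, across genes, correlated at 0.270, 0.159 and 0.219 between samples of the same number and at -0.245 to -0.0109 otherwise. The numbers were therefore used as pairs in an alternative fit, the replicate block. The main fit, which gave the calls and p-values unless stated otherwise, compared the groups without pairing. Calls that change with the replicate block stand beside the results. Alternatives were this block, a filter on dim genes, eBayes with trend and robust settings, centring, a second quantile normalization, other probe set rules and leaving out each array.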

Additional observations from a re-analysis of the deposited data

How the results depend on the processing

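The median difference of the 44 members stayed positive under every alternative run. It was 1.40 with the mean of all probe sets and 0.79 with the dimmest probe set of each gene, and 1.75 to 1.84 without single arrays. Their count of higher genes was 18 with the dimmest probe set and 18 to 25 without single arrays, and their count of lower genes 0 to 3. Over all genes, 1446 were higher with the dimmest probe sets, 3605 lower with arrays centred on their medians, and without single arrays 1365 to 2486 were higher and 505 to 1962 lower. Of the other ciliary genes, 8 were higher and 1 lower with the dimmest probe sets, 1 was lower with the replicate block, and without single arrays 10 to 18 were higher and 0 to 2 lower. With the replicate block 5 calls of members ended and 1 was gained, as given beside them, and no other call of a member changed. With the dimmest probe set the sign turned for Ift57 (-0.49), Ift81 (-0.15), Bbs7 (-0.55), Hspb11 (-0.07), Kif17 (-0.86), Bbip1 (-0.05), Ahi1 (-0.03), Rpgrip1 (-0.81), Invs (-0.66), Cep89 (0.44), Sclt1 (0.22), Ttbk2 (-0.48), Pcm1 (-0.83), Inpp5e (-0.27), Rfx2 (-0.36) and Rfx3 (-0.04). The values for Ift57, Ift81 and Bbs7 are those of that probe set tested alone as well. With the mean of all probe sets it turned for Kif17 (-0.03), Rpgrip1 (-0.15), Invs (-0.75) and Rfx2 (-0.12), of which Invs passed the threshold there. Other sign turns were all in genes not past the threshold. Centred arrays turned Tmem67 (-0.07), B9d1os (-0.22), Ttc30a1 (-0.01), Kif3b (-0.18), Rab3ip (-0.15), Invs (-0.23), Ofd1 (-0.20), Cep97 (-0.16) and Unc119b (-0.08), and a second quantile normalization turned Ift172 (0.02), B9d1os (-0.19), Ttc30a1 (-0.04), Kif3b (-0.03), Invs (-0.13), Ofd1 (-0.05) and Cep97 (-0.10). Without single arrays the difference spanned 0 for Ift172 (-0.11 to 0.19), Tmem67 (-0.15 to 0.55), Nphp4 (-0.14 to 0.19), B9d1os (-0.34 to 0.22), Ttc30a1 (-0.19 to 0.49), Kif3b (-0.03 to 0.15), Rab3ip (-0.03 to 0.30), Tmem138 (-0.35 to 0.09), Invs (-0.23 to 0.19), Ofd1 (-0.07 to 0.29), Cep97 (-0.05 to 0.20) and Rfx4 (-0.24 to 0.11). The dimmest probe set has the lowest mean by construction, and the cause of these changes was not tested. The number of arrays, 3 per group, limits the precision, and values near background carry little signal.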

Other observations

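Among measured genes outside the members and the other ciliary list, the X-box word with at most 2 mismatches was found in 136 of 2583 promoter windows (5.27%) of genes called higher in CCK-EGFP cells, in 33 of 1888 windows (1.75%) of genes called lower and in 437 of 13536 windows (3.23%) of genes not past the threshold. Windows of one gene can overlap, and no test was made of these shares.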
